A study of Mus musculus with 12 samples.

Results

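Broad adult H4K8ac domains are long stretches of the mouse genome in which peaks of acetylation of lysine 8 on histone H4 lay close together in adult oligodendrocyte progenitor cells (OPCs). They were chosen by the adult peak lists alone: peaks at most 1000 bp apart were joined in each of the 3 lists, stretches of 5000 bp or more were kept, and a domain had to hold such a stretch from all 3. This gave 1273 domains among 52868 regions that the adult lists form when joined and merged, or 2.41%. Neonatal peaks played no part in the choice. Adult widths and adult coverage are therefore given as a description with no test. The neonatal bases covered did not enter the choice. A neonatal percentage of domain bases divides them by a width that did.

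The OPCs came by sorting from forebrains of PdgfrαH2BEGFP mice, and every group carried this allele. In it a nuclear green fluorescent histone is made where Pdgfra, the receptor gene that marks OPCs, is active; a histone fusion is a stable protein and can persist in cells that have turned the gene off. Neonatal cells (postnatal day 5) and adult cells (postnatal day 60) gave 3 H4K8ac libraries each. All were crosslinked primary cells.

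Acetylated histone tails loosen chromatin and are bound by bromodomain proteins, and H4K8ac marks active promoters and enhancers. A typical active promoter carries the mark over a nucleosome or a few. Long runs of acetylated nucleosomes across a gene or its enhancers are known from genes that define a cell's identity, among them transcription factors and the abundant products of that cell. OPCs proliferate and remain in the adult brain, and they give rise to oligodendrocytes, which switch on genes for the proteins and lipids of myelin.

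Promoters at the extremes of neonatal coverage show what sequence lies inside these domains. The runs are the 250 bases before the TSS, 5′ to 3′ on the gene's strand, from RefSeq on GRCm38.p6, and capitals mark CpG dinucleotides. Spdef (chr17:27728952-27729201, minus strand) and Daam1 (chr12:71889293-71889542, plus strand) have the promoters in the widest domains without a neonatal peak. Tle3 (chr9:61372116-61372365, plus strand) and Tnrc18 (chr5:142817663-142817912, minus strand) have those in the domains most covered in neonatal libraries. Mog (chr17:37023399-37023648, minus strand), a myelin gene, and Olig2 (chr16:91225300-91225549, plus strand), a progenitor transcription factor, were added after their values were seen.
Spdef: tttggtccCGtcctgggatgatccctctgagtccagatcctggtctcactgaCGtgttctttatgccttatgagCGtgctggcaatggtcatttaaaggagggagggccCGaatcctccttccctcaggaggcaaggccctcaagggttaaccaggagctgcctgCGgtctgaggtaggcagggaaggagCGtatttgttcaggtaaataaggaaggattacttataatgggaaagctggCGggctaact
Daam1: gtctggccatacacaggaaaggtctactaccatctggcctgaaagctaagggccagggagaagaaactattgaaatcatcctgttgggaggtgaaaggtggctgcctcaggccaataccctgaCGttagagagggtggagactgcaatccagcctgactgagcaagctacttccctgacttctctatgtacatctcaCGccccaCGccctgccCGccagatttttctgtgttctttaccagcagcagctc
Mog: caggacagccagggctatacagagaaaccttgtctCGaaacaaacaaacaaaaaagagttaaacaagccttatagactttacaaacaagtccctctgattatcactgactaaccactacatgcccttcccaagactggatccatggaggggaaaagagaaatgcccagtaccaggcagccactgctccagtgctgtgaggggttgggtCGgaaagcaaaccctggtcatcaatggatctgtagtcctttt
Olig2: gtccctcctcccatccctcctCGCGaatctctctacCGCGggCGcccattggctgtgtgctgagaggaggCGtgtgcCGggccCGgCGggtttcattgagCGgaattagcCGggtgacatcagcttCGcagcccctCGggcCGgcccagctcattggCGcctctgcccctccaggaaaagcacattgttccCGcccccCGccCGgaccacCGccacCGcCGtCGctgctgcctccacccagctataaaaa
Tle3: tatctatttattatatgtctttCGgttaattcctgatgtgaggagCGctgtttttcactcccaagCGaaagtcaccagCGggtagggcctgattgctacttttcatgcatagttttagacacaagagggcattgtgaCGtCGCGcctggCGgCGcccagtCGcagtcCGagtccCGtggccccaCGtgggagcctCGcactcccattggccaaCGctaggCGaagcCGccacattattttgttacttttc
Tnrc18: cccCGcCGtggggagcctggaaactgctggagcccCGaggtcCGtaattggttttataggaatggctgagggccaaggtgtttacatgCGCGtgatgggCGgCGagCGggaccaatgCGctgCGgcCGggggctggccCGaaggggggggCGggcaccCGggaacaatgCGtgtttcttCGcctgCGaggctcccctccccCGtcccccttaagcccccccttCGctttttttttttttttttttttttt

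The promoters of Spdef, Daam1 and Mog held 7, 4 and 2 CpGs in these bases. Those of Olig2, Tle3 and Tnrc18 held 22, 17 and 20. The same split across all domain promoters is given further on.

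The domains covered 19.6 Mb, with a median width of 11912 bp, quartiles of 8570 and 18172 bp, and a range from 5380 to 113512 bp. There were 820 domains of at least 10000 bp, 270 of at least 20000 bp and 20 of at least 50000 bp. Peaks of adult replicates 1, 2 and 3 filled 62.3%, 67.2% and 83.2% of their bases, and the median domain held 9, 8 and 6 separate peaks in these libraries. Adult replicate 3, which had the longest list and the highest coverage, set both outer ends of 546 domains, against 33 and 51 for adult replicates 1 and 2. Bases inside a broad stretch of all 3 lists made up 68.7% of the total.

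Near the limit, the 3 narrowest domains were at Elovl6 (5380 bp), on chromosome 16 outside protein-coding genes (5442 bp) and at Hip1 (5451 bp). Just outside, merged regions that reached 5000 bp in no list included those in Adamtsl1 (10347 bp) and Pld1 (8066 bp); pooling staggered shorter stretches made them this wide. A further 548 merged broad regions were found in 2 adult lists and 986 in a single one.

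The same joining and width rule, applied to each library on its own, gave 1669, 1907 and 2720 broad regions in adult replicates 1, 2 and 3. It gave 5, 82 and 1 in neonatal replicates 1, 2 and 3. Every adult list held more broad regions than the richest neonatal list. As geometric means, adult libraries had 276 times as many, a description with no test, since these adult lists chose the domains. The ratio rested on small neonatal counts and was 918 without neonatal replicate 2 and 101 without neonatal replicate 3. The ratio of summed counts, 6296 to 88, was 71.5. The lists also differed in length. Adult replicates 1, 2 and 3 had 72278, 72661 and 77002 peaks, and neonatal replicates 1, 2 and 3 had 9097, 31189 and 7353. When every list was cut to its 7353 strongest peaks, the length of the shortest, adult libraries still gave 224, 388 and 707 broad regions and neonatal libraries 1, 3 and 1.

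**Figure D1:**
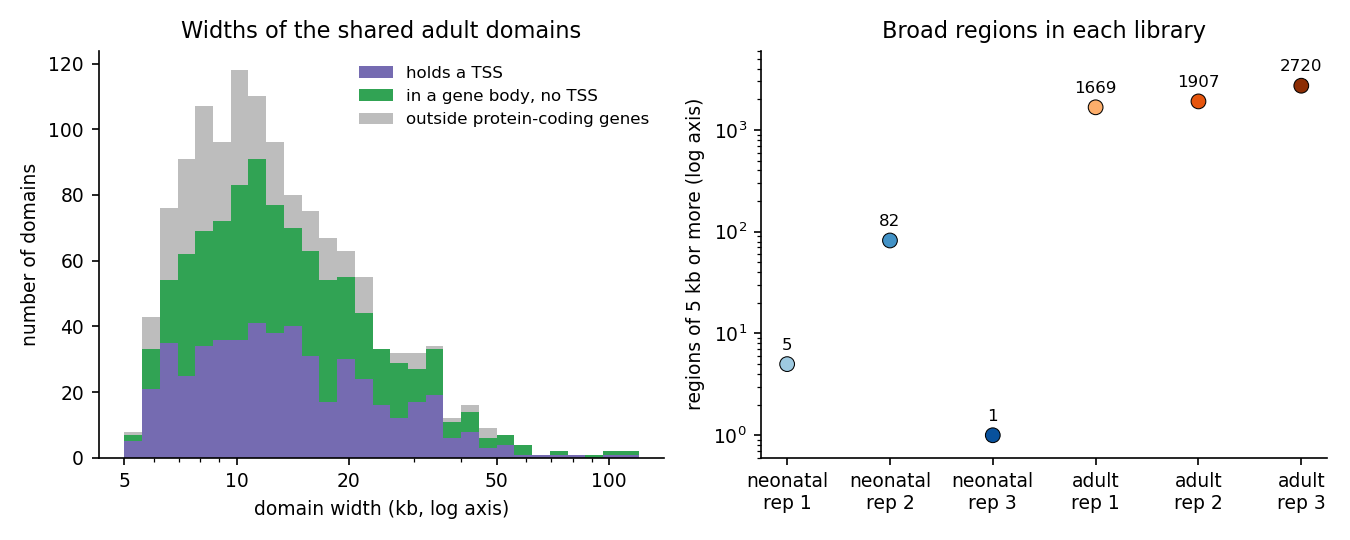
Left, the number of domains by width (log axis, kb), stacked by whether a domain holds a TSS of a protein-coding gene, overlaps a gene body only, or neither; right, the number of regions of 5 kb or more in each library (log axis). The median width was 11912 bp, and the 3 adult libraries lie between 1669 and 2720, all above the neonatal libraries at 1 to 82.

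Most domains lay in genes. A TSS of a protein-coding gene was inside 504 domains (39.6%), 503 (39.5%) overlapped a gene body without a TSS, and 266 (20.9%) touched no protein-coding gene. With the TSSs named in the peak lists added, after seeing the data, 660 domains held a TSS. Some domains classed as without a TSS, here and below, thus hold the start of a further transcript. Gene bodies took up 72.5% of domain bases, against 64.8% of the bases of 9800 narrower regions built in the same way from stretches of at least 1000 bp but under the domain limit. Of the narrower regions, 53.2% held a TSS. In the authors' annotation, introns accounted for 44.4%, 44.4% and 42.2% of the peaks inside domains in adult replicates 1, 2 and 3, against 33.5%, 33.9% and 36.1% of all peaks of these lists.

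The 10 widest domains were mostly inside single long genes. The widest, of 113512 bp (chromosome 10, 40414253 to 40527764), lay mainly in Cdk19, which encodes a kinase of the Mediator complex, and held the TSS of the gene model Gm32234. Adult peaks filled 79640, 85213 and 99539 bp of it and neonatal peaks 0, 191 and 0 bp. The domain at Zeb2, a zinc-finger transcription factor needed for myelination, was 106938 bp wide (chromosome 2, 45010891 to 45117828). Its neonatal peaks covered 1811, 4507 and 1193 bp, so a small part of it was marked at both ages.

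The domain in Gnao1, which encodes a G protein alpha subunit, was 106666 bp wide (chromosome 8, 93830060 to 93936725). Adult peaks covered 72172, 76661 and 94600 bp of it, and no neonatal library had a peak in it. Further domains of this group were in Ctif (90092 bp), Gna12 (83309 bp), Itpk1 (72208 bp), Fgfr2 (70739 bp), Map7 (64663 bp, with the TSS of Rpl32l) and Gab1 (59880 bp). Fgfr2 encodes a fibroblast growth factor receptor and Gab1 an adaptor protein of growth factor signalling. Neonatal peaks covered at most 2300 bp of any of these in any library.

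Counted by gene, Gnao1 had 113007 bp of its body in 2 domains and Gse1 111781 bp in 6. The whole body of Gna12 (70488 bp) lay in a domain, as did 79.6% of Zeb2, and 80.7% of Fam53b lay in 2 domains. There were 173 genes with 2 or more domains. Tcf4, an E-protein partner of basic helix-loop-helix factors, had 5. The domains with the most TSSs held those of Clic3, Lcn12, Paxx and Ptgds (41951 bp, chromosome 2), of Asphd1, Kctd13, Sez6l2 and Tmem219 (35100 bp, chromosome 7), and of Gm46592, Prr18 and T2 (34379 bp, chromosome 17).

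Only a small part of the domains was covered in neonatal cells. Neonatal peaks filled 1.61%, 6.88% and 1.07% of domain bases in replicates 1, 2 and 3 (3.19% ± 3.21, SD, n = 3). The mean without neonatal replicate 2, whose list is the longest of the 3, was 1.34%. A neonatal peak touched 455, 842 and 379 domains. In 429 domains (33.7%) no neonatal library had a peak, against 30.5% of the narrower regions. Without neonatal replicate 2 the number of untouched domains was 766. In 327 domains (25.7%) all 3 neonatal libraries had a peak.

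Set against the narrower adult regions, the domains had a lower neonatal coverage by base. It was 6.83%, 23.8% and 5.70% in the narrower regions, and the domains were lower in each library, with differences of -5.21, -16.9 and -4.63 percentage points in neonatal replicates 1, 2 and 3 (mean -8.92 ± 6.93, SD, n = 3; exact sign-flip permutation test, two-sided, p = 0.25, the smallest possible). The difference was in the same direction in 3 of 3 libraries, and its mean was -4.92 without neonatal replicate 2. The choice set the widths that these percentages divide by, so the test cannot separate less neonatal marking from greater width. Against narrower regions built from stretches of at least 2500 bp, closer in width to the domains, it was -5.41. Where a TSS was present, coverage was 2.60%, 10.1% and 1.80% in domains and 12.7%, 40.4% and 10.8% in narrower regions. In gene bodies without a TSS it was 0.771%, 3.99% and 0.408% against 1.72%, 8.59% and 1.24%.

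Counted by region and not by base, the picture changed. Neonatal replicates 1, 2 and 3 had a peak in 61.9%, 92.1% and 55.8% of domains with a TSS, close to the 63.5%, 96.99% and 58.6% of narrower regions with a TSS. The average domain with a TSS held more neonatal peak sequence than the average narrower region with one, at 426, 1653 and 295 bp against 277, 881 and 236 bp. Domains without a TSS were touched more often than narrower regions without one, in gene bodies by 18.9%, 48.9% and 11.7% against 11.97%, 34.7% and 9.43%. Their median widths in gene bodies were 12319 and 2729 bp. Across domain widths, the neonatal percentage was 2.77, 11.8 and 2.03 in the 319 narrowest domains (5380 to 8570 bp) and 1.25, 5.59 and 0.810 in the 318 widest (18174 to 113512 bp).

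**Figure D2:**
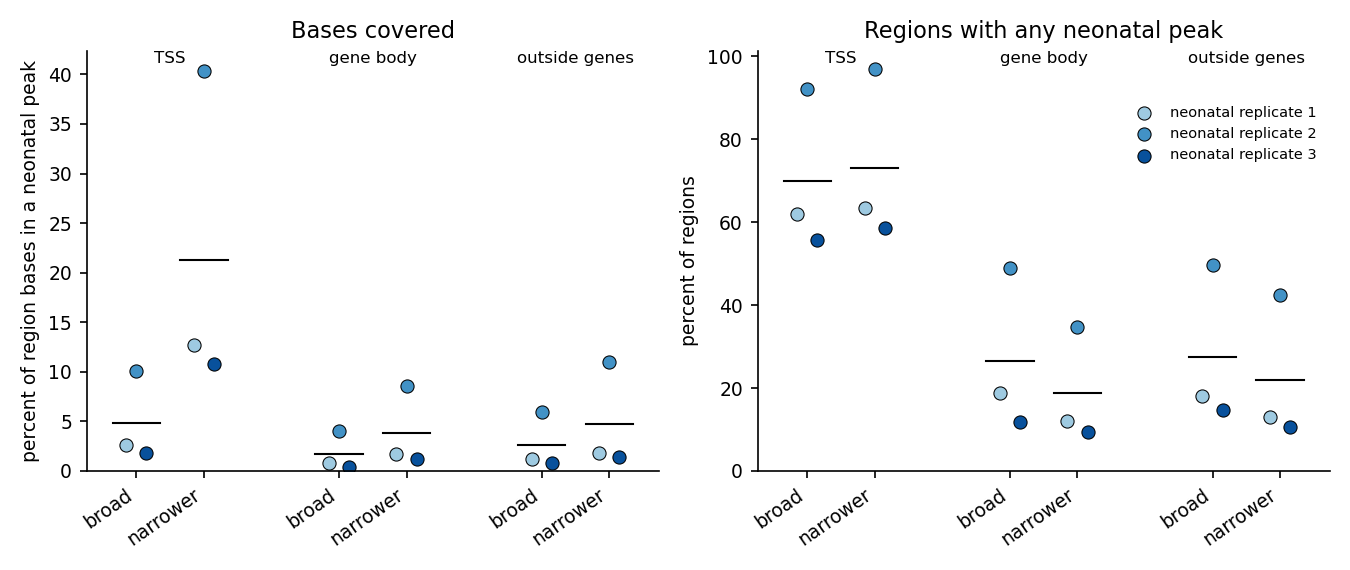
Percent of bases inside a neonatal peak (left) and percent of regions with any neonatal peak (right) in broad domains and narrower adult regions, split by whether a region holds a TSS, overlaps a gene body only or lies outside protein-coding genes. Points are the 3 neonatal libraries and lines their means; by base every broad group lies below its narrower counterpart (for regions with a TSS 1.80% to 10.1% against 10.8% to 40.4%), while by region the groups with a TSS are close.

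Inside the domains the bases covered in neonatal cells lay near TSSs more often than domain bases as a whole. Bases within 1000 bp of a TSS made up 6.24% of domain bases but 42.6%, 30.4% and 49.4% of the bases that neonatal replicates 1, 2 and 3 covered there. The excess was 34.6 ± 9.63 percentage points (SD, n = 3; higher in 3 of 3 libraries; exact sign-flip permutation test, two-sided, p = 0.25, the smallest possible). Adult peaks in the same domains had 7.99%, 7.53% and 6.75% of their covered bases there, close to the share of the domain itself. Adult peaks chose the domains and filled most of their bases, so this closeness follows from the choice and is no contrast between ages. In the authors' annotation, promoters accounted for 64.7%, 54.7% and 72.6% of the peaks of neonatal replicates 1, 2 and 3 inside domains, and for 85.2%, 67.5% and 88.8% of all their peaks. The concentration at promoters was thus a feature of the whole neonatal lists and was lower inside the domains.

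The profile over 492 genes with their 5′ end in a domain gave the same view. In the first 500 bp downstream of the TSS, neonatal peaks covered 23.7%, 56.2% and 19.3% of domain bases. Between 3000 and 3500 bp downstream they covered 0.871%, 7.84% and 0.535%, and between 3500 and 3000 bp upstream 1.72%, 8.03% and 2.00%. Adult peaks covered 88.8%, 88.0% and 93.8% in the first 500 bp and 67.9%, 69.9% and 88.5% at 3000 to 3500 bp downstream. The adult mark thus extended through the domain, as the selection requires, and neonatal coverage was highest in the kilobase after the start.

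**Figure D3:**
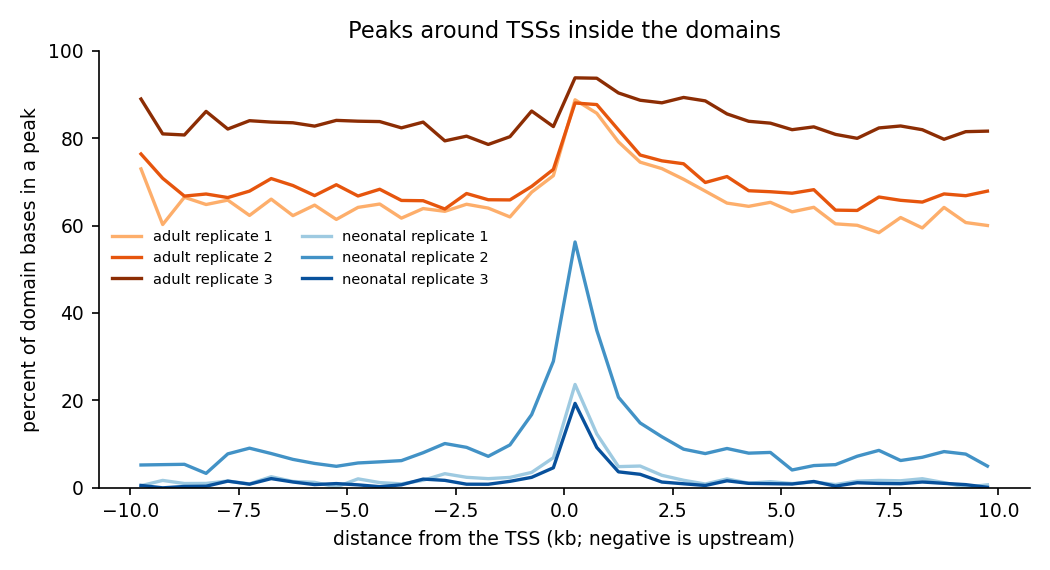
Percent of domain bases in a peak against the distance from the TSS (kb, bins of 500 bp, only bases inside the domain) for each of the 6 libraries, over 492 genes. Neonatal libraries peak at 19.3% to 56.2% just downstream of the TSS and lie under 10% beyond 3000 bp on either side, while adult libraries stay at 58.4% or more throughout.

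The domains most covered in neonatal cells were mostly narrow: 9 of the 10 were under the median width of 11912 bp. Tle3, a transcriptional corepressor, led with a domain of 5518 bp (chromosome 9, 61369369 to 61374886), of which neonatal peaks covered 1647, 2873 and 1544 bp and adult peaks 4392, 4196 and 4607 bp. The Tnrc18 domain (11377 bp; chromosome 5, 142812195 to 142823571) had 2355, 6961 and 2332 bp in neonatal and 9616, 9307 and 10106 bp in adult libraries. In Nrarp, a regulator of Notch signalling, neonatal peaks covered 1108, 3823 and 164 of 6470 bp. At Ptch1, the hedgehog receptor, they covered 1005, 2766 and 985 of 5713 bp. The others were at Smarcd3, a subunit of the BAF chromatin remodeller, at Rhof and Setd1b, at Phldb1, in Vwa8, at Zfp469 and on chromosome 18 outside protein-coding genes. Even in these 10 domains the mean neonatal coverage was 25.5% to 36.6%.

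At the other end, the widest domains without a neonatal peak after Gnao1 included the Spdef TSS (53874 bp, chromosome 17, mainly in Ilrun) and stretches of the gene bodies of Pex5l (50397 bp), Sik3 (44116 bp), Elmo1 (43168 bp), Prima1 (42177 bp), Dym (41430 bp), Kif13b (37885 bp) and Btbd16 (35311 bp). A domain of 35633 bp on chromosome 3 (15089002 to 15124634) touched no protein-coding gene. Adult peaks covered between 17530 and 30158 bp of the Kif13b domain and between 33095 and 45526 bp of the Pex5l domain. Kif13b encodes a kinesin motor, Sik3 a salt-inducible kinase and Elmo1 an activator of Rac. Absence of a neonatal peak holds for the domain, not the whole gene. A separate domain at the Sik3 TSS (7458 bp) had a mean neonatal coverage of 8.24%.

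Among the gene lists, myelin genes had the most members with a TSS in a domain. This order turned when every list was cut to its strongest peaks, where 3 OPC genes, 1 myelin gene and 1 regulator of differentiation had one. A TSS in a domain was found for 569 of 21627 protein-coding genes (2.63%), and a domain overlapped the body of 974 (4.5%). A peak within 1000 bp of a TSS was found in all 3 adult libraries for 53.1% of protein-coding genes, and 4.94% of these had a TSS in a domain. The lists are set beside these shares as counts with no test, since they were chosen with results known and the adult lists chose the domains.

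Of 16 myelin genes, 12 had a TSS in a domain, and a domain overlapped all 16. The widest was at Fa2h, which hydroxylates fatty acids of myelin lipids: 44865 bp (chromosome 8, 111349363 to 111394227), covered over 31110, 33418 and 40182 bp in adult and 442, 2695 and 160 bp in neonatal libraries. Tspan2, a tetraspanin, had 33434 bp, with 0, 1674 and 221 bp in neonatal libraries. Cldn11, the claudin of myelin tight junctions, had 30531 bp, with 0, 1379 and 0 bp. Cnp, an enzyme of non-compact myelin, had 26827 bp, with 549, 1508 and 0 bp. Neonatal replicate 2 had the most covered bases in each of these, and adult coverage is given as the basis of their choice.

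The domains of Mag, Mobp, Opalin and Ermn had no neonatal peak. The Mog domain (15583 bp) was covered over 11145, 10388 and 13559 bp in adult libraries and 0, 958 and 0 bp in neonatal libraries. Plekhb1 was the exception on the myelin list, with 1669, 3473 and 820 of 10088 bp covered in neonatal libraries. For Mbp, Aspa, Ugt8a and Enpp2 a domain overlapped the gene body and held none of the TSSs used here. The gene that the Aspa domain overlapped most was Trpv3.

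The regulators of differentiation gave 7 of 16 genes: Myrf, Nkx6-2, Zfp488, Zfp536, St18, Nfasc and Gpr17. Nfasc, an adhesion molecule of the node of Ranvier listed here for its use in oligodendrocytes, had 40873 bp, with 173, 856 and 0 bp in neonatal libraries. Zfp536, a zinc-finger repressor, had 40282 bp, with 0, 2152 and 204 bp. Gpr17, a receptor of committed precursors, had 29055 bp and a larger neonatal part of 2292, 5035 and 1420 bp. Myrf, the transcription factor that drives myelin genes, had 20755 bp, with 236, 1356 and 0 bp. Nkx6-2 and St18 had no neonatal peak in their domains.

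OPC genes gave 6 of 16: Sox10, Cspg4, Sox8, Olig1, Olig2 and Nkx2-2. Sox10, a transcription factor of the whole lineage, had a domain of 32595 bp (chromosome 15, 79148540 to 79181134) with 22959, 25575 and 28581 bp in adult and 4131, 8718 and 1798 bp in neonatal libraries. Cspg4, the NG2 proteoglycan of OPCs, had 23097 bp, with 3020, 12606 and 1352 bp in neonatal and 13289, 14350 and 15176 bp in adult libraries. Sox8 had 20686 bp, with 1486, 5242 and 321 bp, and Olig1 19959 bp, with 1305, 3303 and 438 bp in neonatal libraries. Every one of the 6 OPC domains had a peak in all 3 neonatal libraries, against 2 of the 12 myelin domains (Fa2h and Plekhb1) and 48.8% of all domains with a TSS. The difference between the lists was not tested.

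Lipid metabolism genes gave 4 of 16, of which the widest domain was that of Scd2, a fatty acid desaturase (10170 bp; 392, 1731 and 0 bp in neonatal libraries); Srebf1, Fasn and Elovl6 followed with 7493, 6634 and 5380 bp. The immediate early list gave Nr4a1 (14954 bp; 1778, 5481 and 833 bp) and Jund (8240 bp; 1296, 1751 and 811 bp). The housekeeping list gave 1 of 16, and 14 of its 16 genes had an adult peak at a TSS in all 3 libraries. Of all protein-coding genes with such a peak, 4.94% had a TSS in a domain. The housekeeping count lies near that share, and no depletion is read from it. No gene of the cell cycle, neuron, astrocyte, microglia or vascular and fibroblast lists had a TSS in a domain. Of these lists, 8, 4, 8, 0 and 2 genes had an adult peak at a TSS in all 3 libraries. With so few genes, 0 cannot be told from the 4.94% share. At a joining gap of 2000 bp the cell cycle list gave 1 gene and the astrocyte list 2. At a width of 3000 bp the neuron list gave 1 and the astrocyte list 2.

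The marker lists also describe the cells. A peak within 1000 bp of a TSS was found for 14, 16 and 10 of 16 OPC genes in neonatal replicates 1, 2 and 3 and for 15, 12 and 14 in adult replicates. Myelin genes, which mark mature oligodendrocytes, had one in 5, 8 and 5 neonatal and 16, 16 and 16 adult cases. Astrocyte genes had one in 5, 13 and 3 neonatal and 10, 8 and 9 adult cases, neuron genes in 0, 9 and 1 and in 7, 4 and 4, and vascular and fibroblast genes in 0, 3 and 0 and in 3, 3 and 3. No microglial gene had one in any library. A larger share of cells carrying the mark and more mark per cell cannot be told apart in these pools, and the part of differentiating cells in the myelin domains was not tested.

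**Figure D4:**
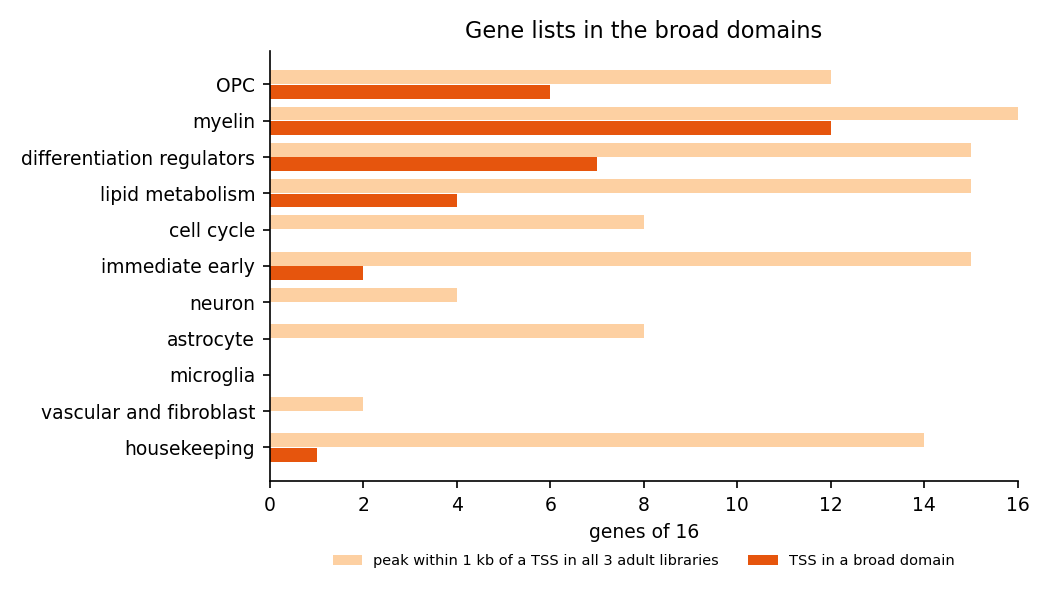
Number of genes of 16 in each list with a peak within 1 kb of a TSS in all 3 adult libraries (pale bars) and with a TSS in a broad domain (dark bars). Myelin reaches 12 of 16 in domains, OPC genes 6 and housekeeping 1, and housekeeping has 14 with an adult peak.

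**Figure D5:**
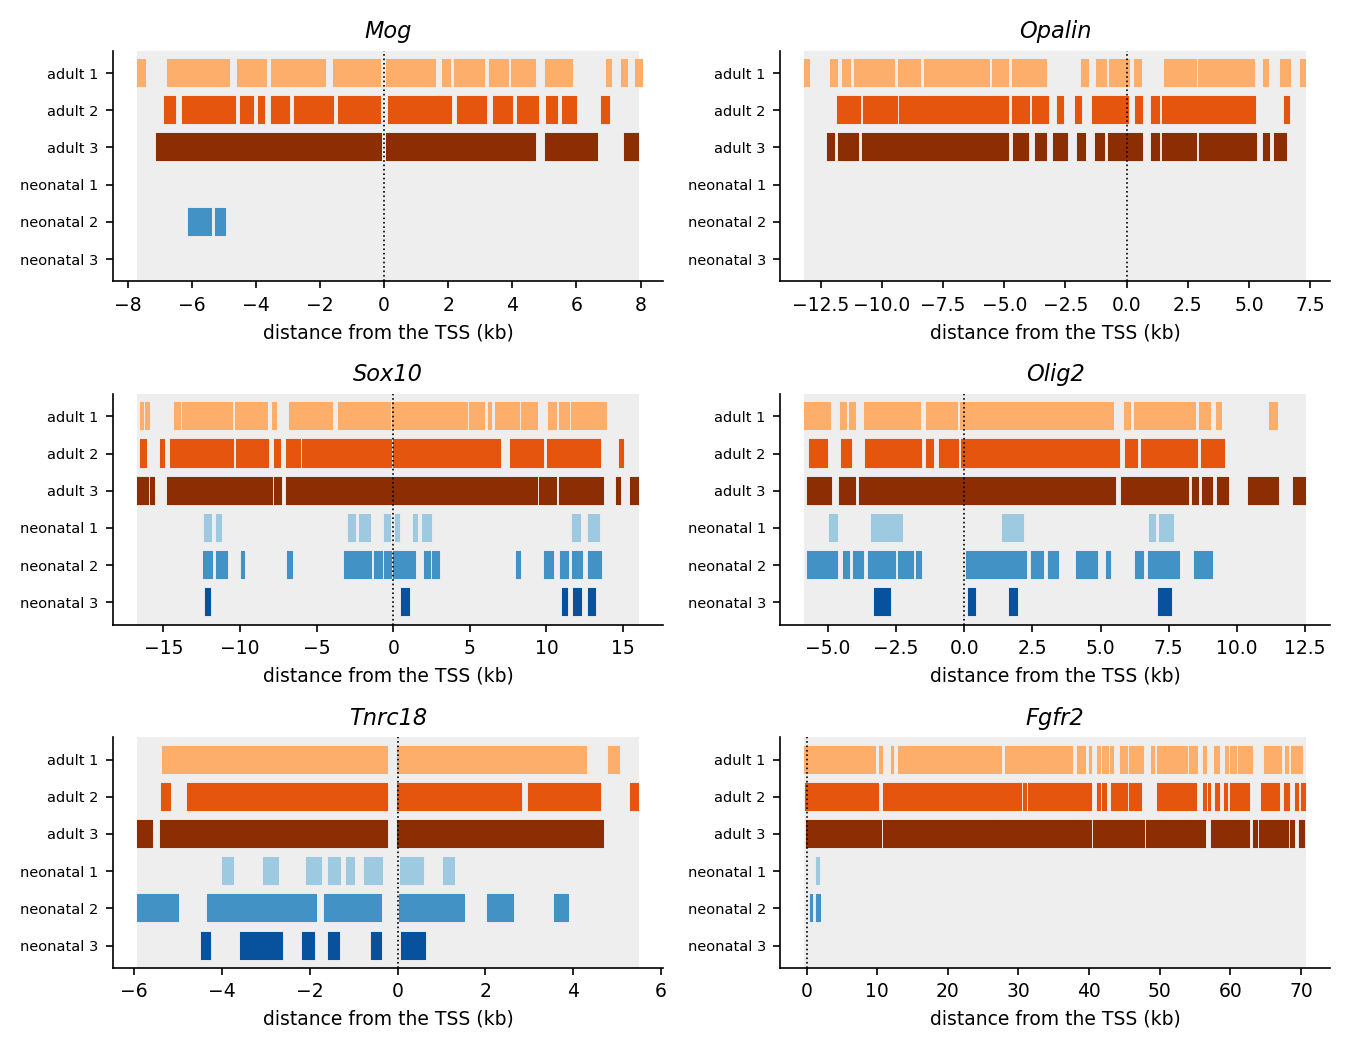
Peaks of the 6 libraries (bars) across 6 domains (grey) by distance from the TSS (kb, positive is downstream; dotted line, TSS). Adult peaks lie along each domain with gaps between them; neonatal peaks are absent in Opalin, limited to 958 bp upstream in Mog (replicate 2), scattered across Sox10, Olig2 and Tnrc18, and near the start in Fgfr2.

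The maps show the kinds of domain side by side. Adult peaks covered 71.5%, 66.7% and 87.0% of the Mog domain and 66.2%, 69.2% and 73.6% of the Opalin domain in adult replicates 1, 2 and 3. Neonatal peaks were few in Mog and absent in Opalin. Sox10 and Olig2 carried neonatal peaks upstream and downstream of the start in all 3 libraries, with gaps between them that adult peaks filled in part. In neonatal replicate 2 the peaks at Olig2 joined into a broad region of 9001 bp. Olig2 (18309 bp) had 2779, 8997 and 1458 bp in neonatal and 13052, 12767 and 15543 bp in adult libraries. Opalin (20397 bp) had 13499, 14120 and 15013 bp in adult libraries and none in neonatal ones.

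The CpG content of promoters in the domains varied with neonatal marking. The RefSeq table held 581 promoters of 444 genes with a TSS in a domain, each a window of 300 bp. Their median was 19 CpGs (quartiles 8 and 28), against 22 in promoters with a peak in all 3 adult libraries outside domains and 13 in all promoters. Fewer than 10 CpGs were found in 28.9% of domain promoters, 11.7% of adult-marked promoters outside domains and 42.7% of all promoters.

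Domain promoters with no neonatal peak within 1000 bp had a median of 4 CpGs (104 promoters). The median was 16 with a peak in 1 neonatal library (147), 20 with 2 (102) and 25 with all 3 (228). Among domain promoters with 10 or more CpGs, 62.5%, 97.1% and 55.9% had a peak in neonatal replicates 1, 2 and 3. Among those with fewer, 22.6%, 45.2% and 18.5% had one. Outside domains the same values were 53.5%, 95.4% and 48.0% for promoters rich in CpG and 26.2%, 72.6% and 23.4% for poor ones. Promoters in domains had a neonatal peak in 50.9%, 82.1% and 45.1% of cases, against 50.3%, 92.7% and 45.1% of other adult-marked promoters, so the sets differed in replicate 2 mainly; this difference was not tested.

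Short sequences, searched on both strands of the same windows, varied likewise. ACAAAG, the core that SOX factors recognise, was present in 28.8% of domain promoters without a neonatal peak, in 12.3% of those with a peak in all 3 neonatal libraries and in 16.9% of all promoters. GGGCGG, the GC box, which itself contains a CpG, was present in 23.1%, 69.3% and 46.7%. CAGCTG, an E-box, was present in 16.3%, 17.5% and 15.7%, with little variation. ACAAAG also varied with CpG content outside domains. There it was present in 21.7% of adult-marked promoters with under 10 CpGs and 11.1% of those with 10 or more. Median GC was 52.7% in domain promoters without a neonatal peak and 66.7% in those with a peak in all 3 neonatal libraries. A difference beyond base composition was not tested. The 3 sequences do not contain each other, and a match is not a binding site.

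Broad neonatal regions were few, and most overlapped an adult domain. The 5, 82 and 1 broad regions of the neonatal libraries merged into 82. Each one of replicates 1 and 3 overlapped one of replicate 2, so the merged set follows replicate 2. Of the 82, 48 (58.5%) overlapped an adult domain, and these made up the counterpart of 45 adult domains (3.53%). Of all peaks of neonatal replicates 1, 2 and 3, 9.75%, 8.91% and 8.45% overlapped a domain. A peak is narrower than a broad region and overlaps a domain less readily, and the difference was not tested. The Tnrc18 region was broad in all 3 neonatal libraries, with 5252, 9780 and 5082 bp, and Sox10 in replicates 1 and 2 (5323 and 6152 bp). In neonatal replicate 2, Cspg4 (8598 bp), Nrarp (5342 bp) and Plekhb1 (5320 bp) were also broad and inside adult domains.

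Broad neonatal regions outside the adult domains included Midn in replicates 1 and 2 (8904 and 13846 bp). In replicate 2 they included Pdgfra, the receptor behind the reporter (8523 bp), Bmp7, a secreted signalling protein (7022 bp), Id2, an inhibitor of basic helix-loop-helix factors (6170 bp), Ccnd1, a cyclin of G1 phase (5647 bp), and Sox6, a progenitor transcription factor (5141 bp). These names were chosen after their values were seen, and all but Midn rest on a single library.

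In the authors' deposited table of differential sites, 6537 sites had their centre in a domain, and 1272 of the 1273 domains had at least 1. All 6537 of these sites in the authors' deposited table had a positive log2 fold change. So did 43630 of all 43880 sites that the authors' deposited table lists on the chromosomes used here. Positive values were read as higher in adult cells, since 85.0%, 89.4% and 96.7% of positive sites of the authors' deposited table overlapped a peak of adult replicates 1, 2 and 3, against 11.7%, 27.8% and 10.3% for the neonatal replicates. Over the whole genome 79.6% of 54838 sites tested, a number worked out from the adjusted and raw p-values in the authors' deposited table, were called higher in adult cells. Since adult peaks chose the domains, nothing is read from the members' share.

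From the authors' deposited table, the median log2 fold change was 3.17 in domains (quartiles 2.37 and 4.15) and 2.27 at sites outside them. By class it was 2.94 in domains with a TSS, 3.28 in gene bodies and 3.27 outside protein-coding genes, all from the authors' deposited table. Within the lists, the median over the sites of a domain in the authors' deposited table was 3.37 for Fa2h, 4.45 for Opalin and 4.42 for Mobp. It was 1.35 for Cspg4, 1.76 for Sox10, 1.93 for Olig2 and 1.28 for Plekhb1 in the authors' deposited table, so the domains with more neonatal coverage had the smaller values here. Nkx6-2 had the highest of the list genes in the authors' deposited table, 6.46 over 2 sites. The neonatal signal behind coverage also enters these fold changes.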

How the data were processed

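H4K8ac was measured by ChIP-seq in 6 libraries, 3 from postnatal day 5 and 3 from postnatal day 60. The submitters' processing notes name Trim Galore, Bowtie2 2.4.5, SAMtools, deepTools, MACS2, DiffBind and ChIPseeker and the build GRCm38, with no role or order. Per the file headers, the authors deposited 1 peak list per library with a score, a fold enrichment (a linear ratio), and −log10 of each p-value and q-value. The authors deposited a further file of sites that differ between the ages, holding for each the log2 fold change with raw and adjusted p-value but nothing for single libraries; how reads were normalized for it is not given in the sources used here. The 6 input libraries were not analysed here. Read depth is unknown here and no interval that needs it is given. The number of peaks per list limits the precision.

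Peaks at most 1000 bp apart were joined in each adult list, stretches of 5000 bp or more were kept, and overlapping stretches of the 3 lists were merged. Coverage was the number of bases of a domain inside a peak of a library. Narrower regions were built alike from stretches of at least 1000 bp and under 5000 bp in all 3 adult lists and overlap no domain. The transcription start site (TSS) of a gene was its RefSeq 5′ end or a start in the RefSeq promoter table (GRCm38.p6). Strand was unknown for 1490 of 21627 protein-coding genes, of which 1 had an end in a domain. Coordinates are counted from 1. Python 3.11.15, numpy 2.4.6 and pandas 2.3.3 were used, and the interval functions were tested on simulated data. Values within neonatal libraries were compared with a two-sided exact sign-flip permutation test. A permutation test between the ages had been planned for the number of broad regions; its p is not given, since adult lists chose the domains. Labels call the libraries biological replicates; whether animals were pooled is not given.

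The domains, the 11 gene lists of 16 genes and the tests were chosen with earlier results of these data known. Domains were named if among the 10 widest, the 10 most covered in neonatal libraries, the 10 widest without a neonatal peak, the 3 with the most TSSs or the 3 nearest the width limit on either side, or if they held a list gene, with values for the 4 widest of a list. Other genes were named after their values were seen. Some domains and genes that this rule names are not reported here. Alternatives changed the joining gap, the width, the q-value limit, the number of peaks, the widths of the narrower regions, the TSS distance and the libraries used.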

Additional observations from a re-analysis of the deposited data

How the results depend on the processing

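Of 218 values recomputed under an alternative, 181 kept their direction or stayed within the limit set for them (a count within 1.5 times). A further 37 moved beyond it and 0 reversed. Only the difference from narrower regions, the ratio of broad regions and the excess near TSSs could reverse. The other values could only stay or move, and list counts of 0 at both settings counted as kept. The neonatal percentage, 3.19 as reported, was held to a limit of its SD, 3.21. The tally is therefore no measure of robustness. The number of domains was 827 with a joining gap of 500 bp, 2725 at a width of 3000 bp, 577 at 8000 bp and 156 with the 7353 strongest peaks of each library. Their median width, 11912 bp as reported, was 7724 bp at 3000 bp, 17613 bp at 8000 bp and 7130 bp for the shared core, and 9278 to 10943 bp with 1 adult library left out (lowest without adult replicate 3). Genes with a TSS in a domain numbered 345 and 860 at gaps of 500 and 2000 bp, 1050 and 305 at widths of 3000 and 8000 bp and 80 with the strongest peaks. Domains with no neonatal peak numbered 271 at a gap of 500 bp, 1058 and 156 at widths of 3000 and 8000 bp, 67 with the strongest peaks, and 430 to 766 with 1 library left out (highest without neonatal replicate 2). List genes with a TSS in a domain, 32 as reported, were 20 at 8000 bp and 6 with the strongest peaks, where OPC genes (3) led in place of myelin genes (1). The domain set itself thus follows the thresholds that define it. The cause of the other changes was not tested.

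The neonatal share of domain bases ranged from 1.34% to 4.25% over all settings run, the lower end without neonatal replicate 2. The deficit against narrower regions lay between -18.5 (strongest peaks) and -4.92 percentage points (without neonatal replicate 2), with -5.41 against narrower regions of at least 2500 bp, and the excess near TSSs between 27.3 and 39.8 points, each with the same sign in every setting run. The ratio of broad regions per library lay between 101 and 918; no ratio was computed at a gap of 500 bp or a width of 8000 bp, where a neonatal library had 0. With the replicate block the ratio was 276, as without it. Whether the numbers pair the samples cannot be told from these values. Deviations from the age mean correlated at -0.113, 0.021 and 0.180 between same-numbered libraries, across 11073 regions. Between differently numbered libraries the values ran from -0.246 to 0.222. With 3 libraries per age the deviations also depend on each other. After seeing the data, TSSs named in the peak lists were added, which gave 725 genes and 660 domains with a TSS. Unknown read depth limits what absence of a neonatal peak can show.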

Other observations

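The X chromosome held 3 of the 1273 domains (0.236%), against 109 of the 9800 narrower adult regions (1.11%) and 4.47% of protein-coding genes. None of the 3 had a neonatal peak.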
